A study of Mus musculus with 4 samples.

Results

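Major histocompatibility complex (MHC) class I molecules carry short peptides from inside the cell to its surface, where CD8 T cells read them. A polymorphic heavy chain pairs with beta-2-microglobulin in the endoplasmic reticulum. There a loading complex of the TAP transporter, tapasin and general chaperones, helped by the trimming peptidase ERAP1, fits it with a peptide. Liver cells make class I at a low level at rest, and interferons raise the whole set through STAT and IRF factors and through the coactivator NLRC5.

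From this pathway 10 genes, of the 13422 genes in the deposited table were followed by their symbols, and all 10 were present and passed the filter on low values (a mean of at least 1 CPM). They are the heavy chain genes H2-K1, H2-D1 and H2-T23, the light chain gene B2m, the transporter genes Tap1 and Tap2, the tapasin genes Tapbp and Tapbpl, the peptidase gene Erap1 and the regulator Nlrc5. The samples were AML12 cells, an established hepatocyte line from a CD1 mouse of line MT42, which carries a transgene for human transforming growth factor alpha. One group was transfected with the plasmid PAV-TBG-P2A-GFP-Chrna4 (Chrna4 libraries 1 and 2), which carries the gene of a nicotinic acetylcholine receptor subunit. The reference was transfected with the GFP plasmid pCMV6-AC-GFP (Control libraries 1 and 3), and both grew in the same medium with insulin, transferrin, selenium, dexamethasone, serum and an antibiotic mix. By their names the plasmids also differ in promoter (TBG, active in hepatocytes, and CMV), so the insert and the vector cannot be told apart, and the share of cells transfected and the time after transfection are not given in the sources used here. Reads on the listed genes numbered 31301396 to 32228360 per library. Chrna4 itself had 2678 and 2290 reads in the Chrna4 libraries, against 1 and 3 reads in the Control libraries, as their labels say it should.

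All 10 genes rose in the Chrna4 libraries, from 1.40-fold for B2m to 3.09-fold for Nlrc5. The fold is a ratio of mean CPM, the read count scaled to library size. The call is an adjusted p below 0.05 by limma-trend on log2(CPM + 1), adjusted over 11298 tested genes, of which 9.26% were called higher, 6.66% lower and 15.9% either way. Scaled by library totals instead, the split was 812 higher and 1179 lower, against 1046 and 752 here. On the recovered reads all 10 genes were also called higher by edgeR, DESeq2 and limma-voom, which called 9.4%, 8.59% and 9.33% of all tested genes higher. The median log2 change of the 10 was 0.88, beside a median of -0.0028 over all tested genes, and by size of change they stood between place 55 and place 477 of those tested. The 10 were chosen with earlier results of these data known, so these comparisons describe them and do not test the pathway. Both Chrna4 libraries lay above both Control libraries for 10 of 10, which was also true of 28.7% of all tested genes, while 28.8% had both Chrna4 libraries below both Control libraries. Summed over the 10, the level was 5248 and 5050 CPM in the Chrna4 libraries, against 3454 and 3059 CPM in the Control libraries. In bulk RNA, more cells that express a gene and more RNA per cell cannot be told apart. The labels do not say whether the libraries of a group came from separate cultures. Each p sets a change against the spread between these libraries, in part pooled over all tested genes, and that spread may be technical.

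**Figure D1:**
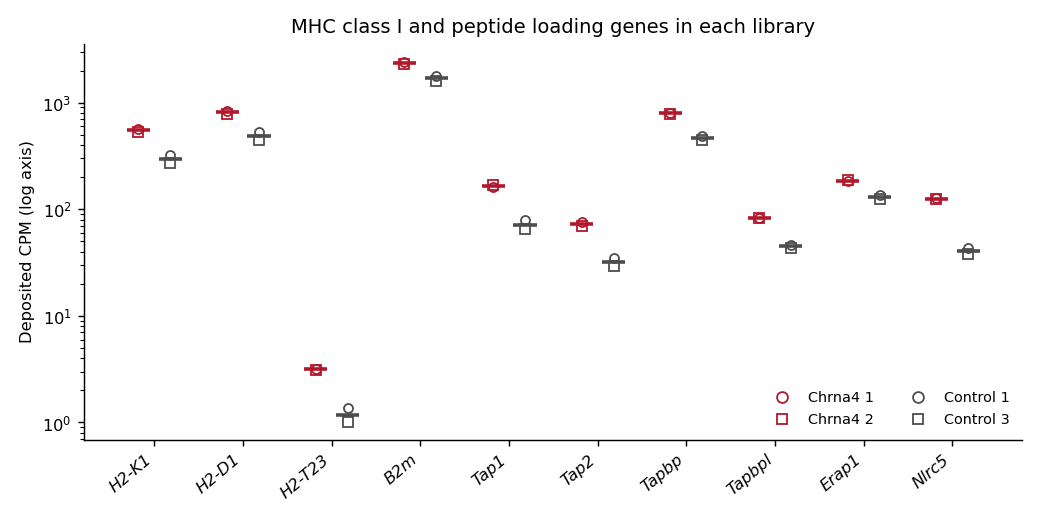
Deposited CPM on a log axis for the 10 genes in each library, with Chrna4 libraries in red and Control libraries in grey, and bars at the group means. For each gene both Chrna4 libraries lie above both Control libraries, and the 10 genes span from about the level of H2-T23 at 1.19 CPM in Control libraries to B2m at 2360 CPM in Chrna4 libraries.

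**Figure D2:**
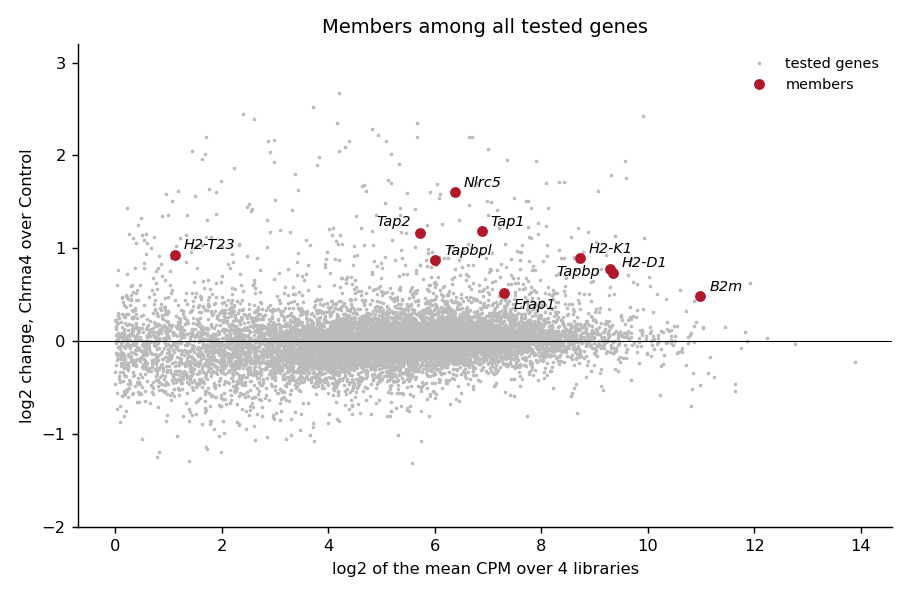
The log2 change, Chrna4 over Control, of the 11298 tested genes against the log2 of their mean CPM over the 4 libraries, with the 10 genes in red. They lie between 0.49 and 1.61 above a cloud centred near 0, and Chrna4 itself, at 6.24, is beyond the top of the axis.

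The heavy chains form the peptide groove. H2-K1 and H2-D1 encode the classical molecules that present peptides to CD8 T cells, and both rose. H2-K1 (ENSMUSG00000061232, GRCm38 chromosome 17, 33996017 to 34000347, minus strand, protein-coding) had 571 and 530 CPM in the Chrna4 libraries, against 320 and 274 CPM in the Control libraries. Both Chrna4 values were well above the higher control, and the mean was 1.86-fold higher (log2 0.89, SE 0.07, adjusted p = 7.15e-06 by limma). H2-D1 (ENSMUSG00000073411, chromosome 17, 35262730 to 35267499, plus strand) had 838 and 786 CPM in the Chrna4 libraries, against 531 and 445 CPM in the Control libraries. Its groups were also apart, with a 1.66-fold higher mean (log2 0.74, SE 0.08, adjusted p = 4.42e-05 by limma). Within each library H2-K1 was 0.682 and 0.675 of H2-D1 in the Chrna4 libraries, against 0.602 and 0.614 in the Control libraries. The ratio was thus higher by 0.16 on the log2 scale in the Chrna4 libraries. This difference rests on 2 libraries per group and was not tested.

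H2-T23 encodes the heavy chain of Qa-1, a non-classical molecule that shows leader peptides of other class I chains to NK cell receptors. It was the lowest of the 10 genes. H2-T23 (ENSMUSG00000067212, chromosome 17, 36029773 to 36032855, minus strand) received 98 and 99 reads in the Chrna4 libraries, against 44 and 33 reads in the Control libraries. That is 3.19 and 3.13 CPM in the Chrna4 libraries, against 1.36 and 1.02 CPM in the Control libraries. The exact 95% counting intervals, which cover counting error alone, were 2.59 to 3.88 and 2.55 to 3.82 CPM in the Chrna4 libraries, against 0.985 to 1.82 and 0.702 to 1.43 CPM in the Control libraries. They do not meet between the groups. The change was 0.93 on the log2(CPM + 1) scale (SE 0.19, adjusted p = 0.0061 by limma), a scale that understates low genes, and 1.41 by edgeR on the recovered reads (adjusted p = 0.00605).

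Heavy chain genes are close copies of each other, so their values need a limit on how far reads can be told apart. Of the distinct stretches of 150 bases (one read length) in the GENCODE M21 transcripts of H2-K1, 0% occur in transcripts of another gene, and for H2-D1 the share was 1.35%, all of it in H2-Q1. For H2-T23 the share was 0.331%. With stretches of 50 bases it was 9.63% for H2-K1, 12.8% for H2-D1 and 13.6% for H2-T23. The labels do not state how multiply matching reads were handled. The class I alleles of this CD1 line are not stated either, and reads were counted against a C57BL/6J genome, so absolute heavy chain levels are uncertain. Whether allele differences changed the counts was not tested.

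The starts of the classical genes are printed here because H2-K1 and H2-D1 both rose, and because class I promoters are known for an NF-kB site beside an interferon response element. RefSeq windows on GRCm38.p6 were found for 7 of the 10 genes. The H2-K1 window (chr17:34000348-34000597, minus strand) and the B2m window (chr2:122147437-122147686, plus strand) are the 250 bases before the start site. The H2-D1 and H2-T23 windows overlap annotated exons of their own genes in GENCODE M21, at 250 and 154 of the 250 bases. Their printed stretches lie inside the annotated genes. A stretch of 29 bases is given for H2-K1 (chr17:34000430-34000458, minus strand) and for H2-D1 (chr17:35262923-35262951, plus strand), and one of 30 bases for H2-T23 (chr17:36032806-36032835, minus strand). Capitals mark matches, on either strand, to the interferon-stimulated response element (GAAA, any 2 bases, GAAA), to the shorter core TTTCNNTT that lies within it, to the STAT element TTCNNNGAA, to the NF-kB motif (GGG, any 4 bases, CCC) and to the CCAAT box.
H2-K1 window: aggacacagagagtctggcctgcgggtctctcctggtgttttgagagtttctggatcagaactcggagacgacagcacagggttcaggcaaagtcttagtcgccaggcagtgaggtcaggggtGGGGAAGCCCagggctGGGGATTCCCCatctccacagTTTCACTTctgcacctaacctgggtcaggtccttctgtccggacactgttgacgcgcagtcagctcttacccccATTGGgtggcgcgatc
B2m window: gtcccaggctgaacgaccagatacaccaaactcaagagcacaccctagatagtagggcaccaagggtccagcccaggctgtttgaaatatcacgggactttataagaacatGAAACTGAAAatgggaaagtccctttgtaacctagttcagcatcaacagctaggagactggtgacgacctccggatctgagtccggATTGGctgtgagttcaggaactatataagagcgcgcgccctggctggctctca
H2-K1 stretch: GGGGATTCCCCatctccacagTTTCACTT
H2-D1 stretch: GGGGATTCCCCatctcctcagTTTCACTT
H2-T23 stretch: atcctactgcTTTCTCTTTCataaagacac

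In the H2-K1 and H2-D1 stretches the NF-kB motif is followed by the IRF core, and the stretches differ by A18T, counted from 1 at the 5′ end, with the base of H2-K1 first. Placed on that motif without gaps, the windows of the pair were identical at 166 of 190 bases. B2m and H2-T23 hold the longer interferon element, and their windows have no match to the NF-kB motif as written above. The B2m window does hold gggaaagtccc after that element, where the gap between GGG and CCC is longer than the motif allows. The motif therefore cannot show that a window lacks an NF-kB site. H2-K1 had 2 overlapping windows, of which the first is printed, and a gene was counted if any of its windows matched. Counted this way, the longer element was in 2 of the 7 genes, and in 2.98% of 32851 RefSeq windows of the same length. The core was in 4 of 7 and in 21.3% of all windows, the NF-kB motif in 2 of 7 and in 10.3%, and the CCAAT box in 6 of 7 and in 33.8%. The STAT element was in 0 of 7 and in 7.02%. The Erap1 window matched none of these motifs. Tap1 and Tapbp matched the CCAAT box alone. The windows of Erap1, Tap1 and Tapbp lie in annotated exons in GENCODE M21 at all 250 bases. Whether they are the promoters used in these cells was not tested, so a missing match there is not a trait of the promoter. A match describes letters in the window and is not a measured binding site.

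B2m encodes the light chain shared by every class I molecule, and it was the most abundant of the 10 and the one with the smallest relative change. B2m (ENSMUSG00000060802, chromosome 2, 122147686 to 122153083, plus strand) had 2405 and 2314 CPM in the Chrna4 libraries, against 1781 and 1595 CPM in the Control libraries. The groups did not overlap (log2 0.49, SE 0.07, adjusted p = 0.000429 by limma). The summed CPM of the 3 heavy chain genes was 0.587 and 0.570 of B2m in the Chrna4 libraries, against 0.478 and 0.451 in the Control libraries. This ratio, which library scaling cannot move, was higher by 0.32 on the log2 scale in the Chrna4 libraries. Its exact two-sided permutation test gave p = 0.333 with n = 2 per group, the smallest p that the design allows. B2m made up 45.8% of the CPM of the 10 genes in each Chrna4 library, against 51.6% and 52.1% in the Control libraries.

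Peptides enter the endoplasmic reticulum through TAP, a pump built of the Tap1 and Tap2 products, and both genes rose by the same factor. Tap1 (ENSMUSG00000037321, chromosome 17, 34187553 to 34197225, plus strand) had 160 and 167 CPM in the Chrna4 libraries, against 78.9 and 64.9 CPM in the Control libraries, 2.28-fold (log2 1.18, SE 0.08, adjusted p = 2.39e-06 by limma). Tap2 (ENSMUSG00000024339, chromosome 17, 34203527 to 34216321, plus strand) had 76.5 and 69.6 CPM in the Chrna4 libraries, against 34.6 and 29.6 CPM in the Control libraries, 2.28-fold (log2 1.16, SE 0.09, adjusted p = 3.72e-06 by limma). The lower Chrna4 library lay above the higher Control library by 1.01 for Tap1 and by 0.99 for Tap2 on the log2(CPM + 1) scale.

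The ratio of Tap1 to Tap2 within a library was 2.09 and 2.40 in the Chrna4 libraries, against 2.28 and 2.19 in the Control libraries, and these ranges overlap. Tap1 starts head to head with the immunoproteasome gene Psmb9, whose annotated gene body overlaps that of Tap1 by 212 bases, and 225 of the 250 bases in their RefSeq windows are the same stretch of DNA. Psmb9 had 63.3 and 54.3 CPM in the Chrna4 libraries, against 24.4 and 20.4 CPM in the Control libraries (log2 1.36, SE 0.10, adjusted p = 3.72e-06 by limma). Without stated strand, reads from those 212 bases, 3.87% of the Tap1 exon length, cannot be given to either gene. The share of exon length that lies on exons of another gene was 18.5% for Tap2, 29.0% for Tapbp and 11.5% for Erap1.

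Tapasin, from Tapbp, bridges TAP and the heavy chain and edits the peptide, and the related protein from Tapbpl edits peptides outside that complex. Tapbp (ENSMUSG00000024308, chromosome 17, 33915899 to 33929292, plus strand) had 797 and 787 CPM in the Chrna4 libraries, against 483 and 443 CPM in the Control libraries, 1.71-fold (log2 0.78, SE 0.06, adjusted p = 3.72e-06 by limma). Tapbpl (ENSMUSG00000038213, chromosome 6, 125223933 to 125231860, minus strand) had 83.6 and 82.6 CPM in the Chrna4 libraries, against 46.6 and 43.5 CPM in the Control libraries, 1.84-fold (log2 0.87, SE 0.07, adjusted p = 5.53e-06 by limma). Both were tight within the Chrna4 group. Within a library Tapbp was 9.54 and 9.53 times Tapbpl in the Chrna4 libraries, against 10.4 and 10.2 times in the Control libraries.

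Erap1 encodes the aminopeptidase that trims peptides to the length the groove takes. Erap1 (ENSMUSG00000021583, chromosome 13, 74639568 to 74693201, plus strand) had 185 and 187 CPM in the Chrna4 libraries, against 135 and 125 CPM in the Control libraries, 1.43-fold (log2 0.52, SE 0.06, adjusted p = 0.000106 by limma). Its groups did not overlap. After B2m this was the smallest relative change of the 10.

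Nlrc5, whose product is recruited to class I promoters and activates them, changed most. Nlrc5 (ENSMUSG00000074151, chromosome 8, 94434356 to 94527272, plus strand) had 127 and 124 CPM in the Chrna4 libraries, against 43.1 and 38.1 CPM in the Control libraries (log2 1.61, SE 0.07, adjusted p = 1.35e-07 by limma). NLRC5 binds DNA through the RFX and NF-Y factors, so the genes of the factors known at class I promoters were counted as a list. Of 15 tested, 8 rose and 0 fell, with a median log2 change of 0.27. Over all tested genes 9.26% were called higher and 6.66% lower. The 8 included the interferon pathway factors Irf1, Irf2, Irf9 and Stat2, the NF-kB subunits Nfkb1 and Rela, and Rfx5, the DNA-binding RFX subunit. Irf1 had 265 and 256 CPM in the Chrna4 libraries, against 138 and 128 CPM in the Control libraries (log2 0.96, SE 0.06, adjusted p = 8.89e-07 by limma). Stat2 averaged 773 ± 0.909 CPM in Chrna4 libraries and 544 ± 0.266 CPM in Control libraries (SD, n = 2 each), and Irf2 averaged 70.5 ± 1.01 CPM in Chrna4 libraries and 48.2 ± 1.75 CPM in Control libraries. Rfx5 had 34.4 and 33.9 CPM in the Chrna4 libraries, against 21.7 and 24.3 CPM in the Control libraries (adjusted p = 0.00123 by limma). The other RFX subunits Rfxap and Rfxank, the NF-Y subunits Nfya, Nfyb and Nfyc, Creb1 and Atf1 did not pass, at log2 changes from -0.26 to 0.06.

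The estimated changes of the 10 genes were not all of the same size. In order of change on the log2(CPM + 1) scale they ran Nlrc5, Tap1, Tap2, H2-T23, H2-K1, Tapbpl, Tapbp, H2-D1, Erap1 and B2m. That scale understates H2-T23, which came second after Nlrc5 by the ratio of mean CPM, at 2.66-fold against 2.28-fold for Tap1 and Tap2, and by edgeR on the recovered reads, at a log2 change of 1.41 against 1.19 for each of that pair. For each of the 9 neighbouring pairs in that order, the ratio of the genes within a library was compared between the groups. The pairs were set by the same changes that these ratios measure again. Separation is also common with so few libraries: of all tested genes 28.7% lay apart upward and 28.8% downward. The counts of pairs therefore describe these libraries and do not test the order. The groups overlapped in 4 pairs, Tap1 with Tap2, H2-K1 with Tapbpl, Tapbp with H2-D1 and Erap1 with B2m. The order within these pairs is not settled. In the other 5 the ratios of the Chrna4 libraries lay apart from those of the Control libraries, as for Nlrc5 over Tap1, at 0.793 and 0.739 in the Chrna4 libraries, against 0.546 and 0.587 in the Control libraries. One of these separations ran against the order above, Tap2 over H2-T23, whose log2 ratio differed by -0.24, Chrna4 minus Control, so H2-T23 was the one of the pair that rose more.

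Levels of different genes were compared per kilobase of exon. Exon length here joins all annotated exons of a gene and is not the length of the transcripts expressed, so the orders depend on the annotation. Exons shared with other genes and the uncertain heavy chain levels, both described above, limit them too. In the Chrna4 libraries B2m stood at 2744 ± 75.1 CPM per kb (SD, n = 2), followed by H2-D1 at 315 ± 14.4, Tapbp at 218 ± 1.97 and H2-K1 at 187 ± 9.90 CPM per kb. Tapbpl had 35.3, Tap1 29.9, Erap1 25.5, Tap2 19.3, Nlrc5 14.8 and H2-T23 1.09 CPM per kb. In the Control libraries B2m had 1963 ± 153 CPM per kb, H2-D1 189 ± 23.5, Tapbp 128 ± 7.70 and H2-K1 101 ± 11.1 CPM per kb. The lower part of the order was Tapbpl at 19.2, Erap1 at 17.8, Tap1 at 13.1, Tap2 at 8.49, Nlrc5 at 4.78 and H2-T23 at 0.411 CPM per kb. Tap1 was thus above Erap1 in the Chrna4 libraries and below it in the Control libraries. Neighbouring genes in these orders did not overlap, although in the Control libraries the lower Tapbpl value and the higher Erap1 value were both 18.5 CPM per kb.

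The Control libraries themselves differed in this pathway. Control 1 exceeded Control 3 for all 10 genes, with a median log2 difference of 0.20 (from 0.10 for Tapbpl to 0.28 for Tap1), while 50.2% of all tested genes were higher in Control 1. Between the Chrna4 libraries the median difference, Chrna4 1 minus Chrna4 2, was 0.03, with 8 of 10 higher in Chrna4 1. For each of the 10 genes, the gap between the lower Chrna4 library and the higher Control library exceeded the difference between the Control libraries. This was not counted over all tested genes, of which 28.7% had both Chrna4 libraries above both Control libraries. The gap was smallest for B2m, at 0.38 against 0.16, and largest for Nlrc5, whose Control libraries differed by 0.18. Leaving out either library of either group kept 10 of 10 called, with a median log2 change of 0.80 without Control 3 and 0.96 without Control 1.

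**Figure D3:**
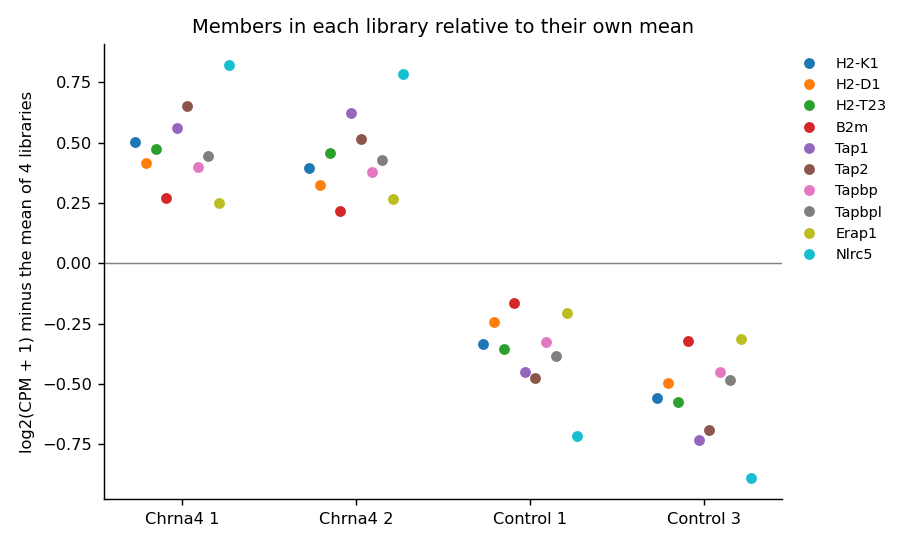
Each gene's log2(CPM + 1) minus its mean over the 4 libraries, 1 point per gene and library, colours naming the genes. All 10 points lie above 0 in both Chrna4 libraries and below 0 in both Control libraries, and for every gene Control 3 is lower than Control 1.

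The genes outside the 10 whose centred profile over the 4 libraries came closest to the mean profile of the 10, by root mean square difference on the log2(CPM + 1) scale, were Pnp, Tor3a, Parp12, Uba7 and Rbm43. Pnp, the purine nucleoside phosphorylase gene, was nearest at 0.0117, with 366 and 351 CPM in the Chrna4 libraries, against 204 and 176 CPM in the Control libraries. Tor3a, of the torsin ATPase family, followed at 0.0132, and the ADP-ribosyltransferase gene Parp12 at 0.0237. Uba7, which encodes the E1 enzyme of ISG15, and the RNA-binding protein gene Rbm43 had 0.0274 and 0.0278. The 10 genes themselves lay between 0.0168 and 0.345 from their mean. This likeness rests on 4 libraries and describes them alone.

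Further heavy chain genes of the H2-Q, H2-T and H2-M series followed in part. Of 20 listed for this purpose 10 could be tested, and 7 rose and 0 fell, with a median log2 change of 0.91. Over all tested genes 9.26% were called higher and 6.66% lower. H2-Q4 had 82.6 and 73.6 CPM in the Chrna4 libraries, against 41.5 and 36.3 CPM in the Control libraries (log2 0.99, SE 0.09, adjusted p = 1.06e-05 by limma). H2-T24 averaged 8.86 ± 0.530 CPM in Chrna4 libraries and 2.53 ± 0.169 CPM in Control libraries (SD, n = 2 each), 3.50-fold. H2-T22 averaged 17.3 ± 0.121 CPM in Chrna4 libraries and 7.94 ± 0.956 CPM in Control libraries. H2-Q7 averaged 5.78 ± 0.549 CPM in Chrna4 libraries and 1.62 ± 0.113 CPM in Control libraries. The remaining increases were in H2-Q1, H2-Q6 and H2-M3. The 3 that did not pass were H2-M1 with a log2 change of 0.05, H2-M9 with 0.09 and H2-M2 with 0.44 (adjusted p = 0.0823 by limma). Stretches shared with other genes were not measured for these close copies. How far their reads can be told apart is therefore not known here, and the shares given for the classical genes do not carry over.

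Class I-like genes, which pair with beta-2-microglobulin or share the fold but do not present peptides to CD8 T cells, were also tested. Of 8, 0 were higher and 1 was lower, with a median log2 change of -0.25. Over all tested genes 9.26% were higher and 6.66% lower, so with 8 genes these counts are near the background. The decrease was in Mr1, which presents vitamin B metabolites. Mr1 had 14.5 and 16.2 CPM in the Chrna4 libraries, against 18.9 and 20.8 CPM in the Control libraries (log2 -0.35, SE 0.11, adjusted p = 0.0428 by limma). That call was lost without Chrna4 1 (adjusted p = 0.291), without Chrna4 2 (adjusted p = 0.0669) without Control 3 (adjusted p = 0.0880), with no filter (adjusted p = 0.0664) and by DESeq2 (adjusted p = 0.0766). Hfe, an iron regulator of the same fold, stood at 18.9 and 19.7 CPM in the Chrna4 libraries and 18.3 and 15.5 CPM in the Control libraries (adjusted p = 0.287 by limma).

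The general chaperones and folding enzymes that also serve the loading complex were called about as often as genes in general. Of 12 tested, 1 rose and 1 fell, beside 15.9% of all tested genes called either way, with a median log2 change of -0.06. Uggt1, the glucosyltransferase that returns unloaded class I to its chaperones, averaged 266 ± 0.0889 CPM in Chrna4 libraries and 226 ± 15.6 CPM in Control libraries (log2 0.24, SE 0.06, adjusted p = 0.0215 by limma). P4hb, a protein disulfide isomerase gene, averaged 1135 ± 1.54 CPM in Chrna4 libraries and 1351 ± 5.72 CPM in Control libraries (log2 -0.25, SE 0.06, adjusted p = 0.00913 by limma). Both calls were lost without Chrna4 1 (adjusted p = 0.180 for Uggt1 and 0.252 for P4hb) and without Chrna4 2 (0.195 and 0.280), and that of Uggt1 also with library totals as the scaling (0.0667). The core partners of tapasin, named here after their values were seen, did not pass. Calr, the calreticulin gene, had 855 and 852 CPM in the Chrna4 libraries, against 903 and 951 CPM in the Control libraries. Pdia3, whose product ERp57 is bound to tapasin, had 906 and 915 CPM in the Chrna4 libraries, against 939 and 900.2 CPM in the Control libraries. Tap1 over Calr was 0.187 and 0.196 in the Chrna4 libraries, against 0.0874 and 0.0682 in the Control libraries.

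Other peptidases that make or destroy class I peptides in the cytosol and endosomes gave 1 increase and 0 decreases among 7 tested, with a median log2 change of 0.11, a count near the 9.26% of all tested genes called higher. The increase was in Rnpep (log2 0.26, SE 0.06, adjusted p = 0.0144 by limma, named after its value was seen). Tpp2, a large cytosolic peptidase gene, averaged 232 ± 4.94 CPM in Chrna4 libraries and 228 ± 5.14 CPM in Control libraries (SD, n = 2 each), and Npepps averaged 163 ± 4.41 CPM in Chrna4 libraries and 183 ± 0.645 CPM in Control libraries (adjusted p = 0.0799 by limma). Without Control 1 or Control 3, Npepps was called lower (adjusted p = 0.0113 and 0.0163), and likewise with library totals as the scaling (adjusted p = 0.0236).

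The proteasome makes most class I peptides, and its interferon-induced subunits replace constitutive ones. Of 10 tested genes of the immunoproteasome, its activators and the constitutive counterparts, 5 rose and 0 fell, with a median log2 change of 0.23. Over all tested genes 9.26% were called higher and 6.66% lower. The subunit gene Psmb10 had 209 and 219 CPM in the Chrna4 libraries, against 112 and 95.7 CPM in the Control libraries (log2 1.04, SE 0.07, adjusted p = 2.41e-06 by limma). Psmb8 had 51.7 and 47.0 CPM in the Chrna4 libraries, against 20.7 and 13.8 CPM in the Control libraries (log2 1.49, SE 0.14, adjusted p = 2.37e-05 by limma). Psme1, of the PA28 activator, averaged 200.5 ± 5.50 CPM in Chrna4 libraries and 131 ± 9.95 CPM in Control libraries (SD, n = 2 each). Psmb8 over its counterpart Psmb5 was 1.02 and 0.921 in the Chrna4 libraries, against 0.360 and 0.273 in the Control libraries, while Psmb5, Psmb6 and Psmb7 did not pass, at log2 changes from -0.08 to 0.08. Beside 9.26% of all tested genes called higher, 2 of 6 tested genes of class I turnover and export rose and 0 fell. They were Susd6, listed as 4933426M11Rik, at 124 ± 1.32 CPM in Chrna4 libraries and 106 ± 4.42 CPM in Control libraries (SD, n = 2 each), and Sppl2a at 214 ± 1.12 CPM in Chrna4 libraries and 179 ± 23.8 CPM in Control libraries. Both were lost without Chrna4 1 (adjusted p = 0.245 for Susd6 and 0.134 for Sppl2a), without Chrna4 2 (0.203 and 0.169) and with library totals as the scaling (0.0794 and 0.0912), and Sppl2a also with no filter (0.0519).

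**Figure D4:**
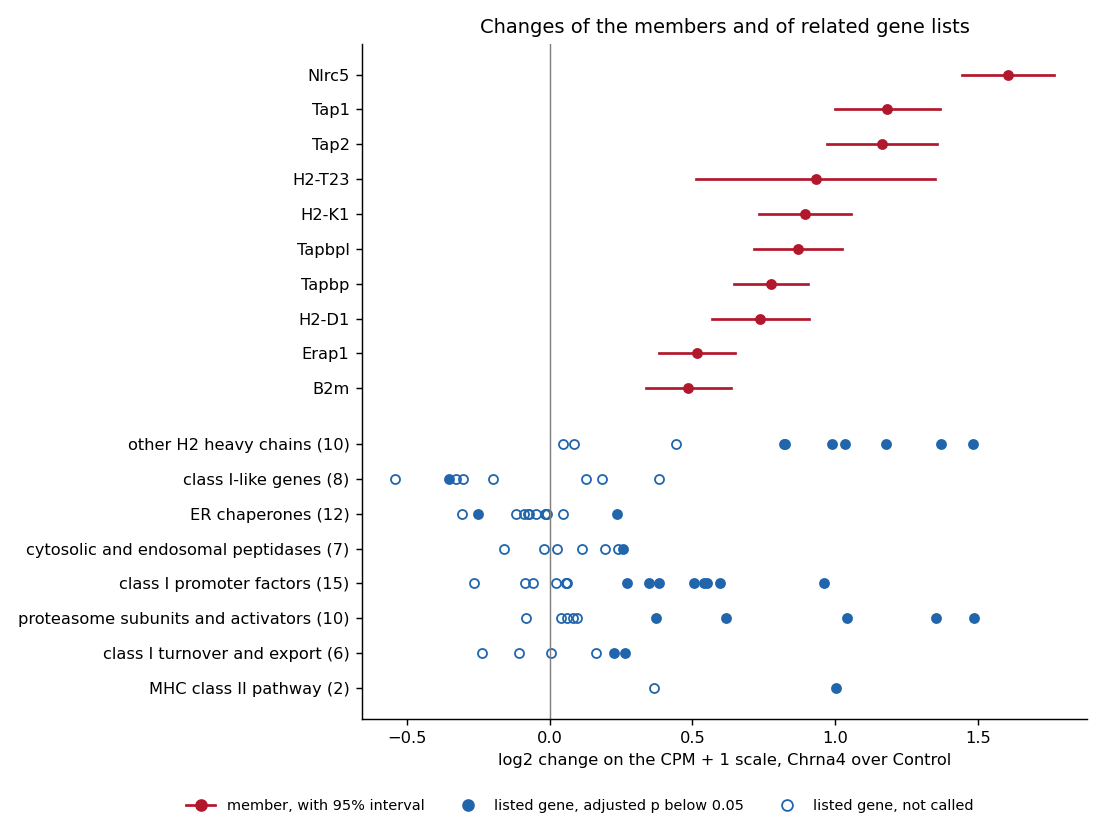
The log2 change on the CPM + 1 scale, Chrna4 over Control, of the 10 genes with 95% intervals (red) and of the tested genes of 8 related lists (blue, filled where called, with the number tested in brackets). Intervals of the 10 genes run from above 0, and the chaperone and class I-like lists lie around or below 0, with medians of -0.06 and -0.25.

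MHC class II genes, which professional antigen-presenting cells express, were close to the limit of detection. Of 11 listed, 2 could be tested. Cd74, the invariant chain gene, received 83 and 70 reads in the Chrna4 libraries, against 19 and 28 reads in the Control libraries (log2 1.00, SE 0.21, adjusted p = 0.00697 by limma). This call was lost without Chrna4 1 (adjusted p = 0.0721). H2-DMa stood at 2.60 and 1.90 CPM in the Chrna4 libraries and 1.14 and 1.95 CPM in the Control libraries (adjusted p = 0.311 by limma). Ciita, the class II counterpart of Nlrc5, was at 0 and 0.0633 CPM in the Chrna4 libraries and at 0.277 and 0 CPM in the Control libraries.

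Of the 10 genes, 6 lie in the MHC on chromosome 17, and between the outermost of them, from 33915899 to 36032855, another 74 genes were tested. All 5 other class I H2 genes there rose, namely H2-Q1, H2-Q4, H2-Q6, H2-Q7 and H2-T24, and so did Psmb8 and Psmb9. Of the 66 genes there that are neither class I genes nor on any of the lists, 7 rose, or 10.6%, beside 9.26% of all tested genes, and 1 fell. These were named after their values were seen. They include the complement genes C4b (log2 1.21), C2 (0.86) and Cfb (0.40), and also Gnl1, Brd2, Vars and Mrps18b, and the decrease was in the sialidase gene Neu1 (-0.36).

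**Figure D5:**
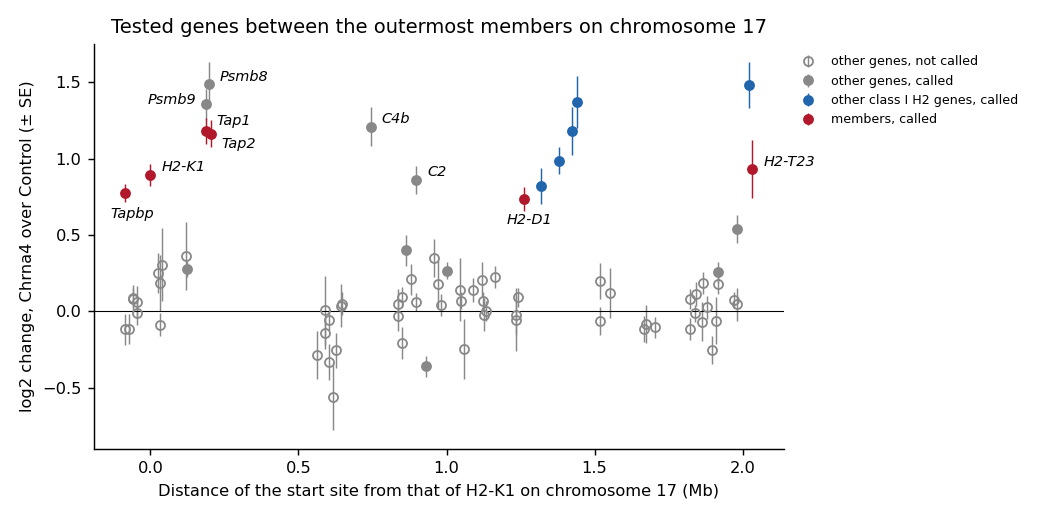
The log2 change with its SE of each tested gene between Tapbp and H2-T23 on chromosome 17, against the distance of its start site from that of H2-K1 in Mb, with the 6 genes of this pathway in red, other class I H2 genes in blue and remaining genes in grey, filled where called. Red and blue points lie at 0.74 or above, and most grey points lie around 0 between them.

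Markers of other cells were checked beside these results. Of 14 leukocyte markers 3 were listed, with a summed level of 96.5 to 101 CPM in the Chrna4 libraries and 93.0 to 98.3 CPM in the Control libraries. Nearly all of it was Cd14, at 92.8 and 97.0 CPM in the Chrna4 libraries and 87.8 and 93.8 CPM in the Control libraries. Of 2 tested markers 0 passed, beside 15.9% of all tested genes called either way. Ptprc, the pan-leukocyte gene, was at 0.130 and 0.0633 CPM in the Chrna4 libraries and at 0.123 and 0.247 CPM in the Control libraries. Of 10 endothelial, stellate and fibroblast markers 2 were listed, Col1a1 and Stab2, with a summed level of 0.253 to 0.488 CPM in the Chrna4 libraries and 0.216 to 0.277 CPM in the Control libraries. Of 10 hepatocyte markers 6 could be tested, of which 2 fell and 4 were not called, beside 6.66% of all tested genes called lower. Their median log2 change was -0.17. The 8 that were listed summed to 1538 and 1617 CPM in the Chrna4 libraries, against 1480 and 1627 CPM in the Control libraries. Alb fell to 7.93 and 8.51 CPM in the Chrna4 libraries, against 17.8 and 19.0 CPM in the Control libraries. Ttr fell to 28.0 and 23.8 CPM in the Chrna4 libraries, against 58.2 and 48.3 CPM in the Control libraries. Their part in the class I results was not tested. Hnf4a, a hepatocyte transcription factor, stood at 217 and 222 CPM in the Chrna4 libraries and 231 and 248 CPM in the Control libraries.

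In the authors' deposited table, whose fold change runs as control over Chrna4, 10 of 10 genes had an adjusted p below 0.05. The share of all genes in that table below this threshold was not counted. The authors' values come from the same libraries, so they are not a separate check. Their log2 values there ran from -1.63 for Nlrc5 to -0.48 for B2m, a negative value meaning higher in Chrna4.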

How the data were processed

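RNA from 2 Chrna4 and 2 Control libraries of AML12 cells was polyA-selected and sequenced as 2 × 150-base Illumina reads, per the labels' protocols. TopHat2, HTSeq and mm10/GRCm38 are named in the submitters' processing notes, without versions, strand or multi-match settings. The deposited signal is a CPM value per gene and library relative to a scaled library size, and 100% of values were whole multiples of 1 read (tolerance 0.01 reads), so reads were recovered. Per the file headers, the authors also deposited columns with their own log2 ratio of the groups, log2 average level and p-value, raw and adjusted.

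The test was limma-trend (limma 3.58.1, R 4.3.3) on log2(CPM + 1) for genes averaging 1 CPM or more, adjusted by Benjamini-Hochberg (threshold 0.05), and was tested on simulated data. It had 2 residual and 9.55 prior degrees of freedom. The genes followed and the 11 further lists were chosen with earlier results of these data known. List genes were named by smallest adjusted p (up to 4 called), or by level (up to 2) where fewer than 2 were called. The 5 most similar profiles were also named, and genes outside this rule were named after their values were seen. A gene that the rule names is not reported here. Alternatives were RLE and library-total scaling, leaving out each library, a pseudocount of 0.1, a 5 CPM minimum or no filter, and edgeR 4.0.16, DESeq2 1.42.0 and limma-voom on recovered reads. GENCODE M21 (GRCm38), in which 98.9% of identifiers were found, gave coordinates and exon lengths, and RefSeq (GRCm38.p6) gave promoter windows. Depth limits the precision of genes near 1 CPM, where 1 read is worth 0.0308 to 0.0325 CPM.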

Additional observations from a re-analysis of the deposited data

How the results depend on the processing

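Each of the 10 genes was called higher under every alternative that tested it, 12 for each gene and 11 for H2-T23, which a minimum of 5 CPM removes and so leaves 9 called. The largest adjusted p over these alternatives was 0.0372, for H2-T23, and 0.0256 for B2m. The median log2 change of the 10 was 0.83 with library totals and 0.80 to 0.96 with a library left out. Of all tested genes 1046 were higher and 752 lower, against 812 and 1179 with library totals, and from 604 to 1712 higher and from 324 to 1296 lower with a library left out. With a library left out, 1 group has a lone library that is assumed to vary like the other group. The cause of these shifts was not tested. Among all genes named by the rule, 18 of 499 results under alternatives lost the call and 3 gained it. None of these was in the 10 genes, and no gene called in either fit changed sign. Tpp2, not called in either, was at 0.03 in the main fit and at -0.03 with library totals. The log2 ratio of heavy chains to B2m was 0.32, and 0.27 to 0.36 with a library left out. H2-T23, with 33 to 99 reads a library, is the gene that depth limits most. No paired analysis was possible because the groups share a single replicate number.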
